A study of Rattus norvegicus with 24 samples.

Results

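The protein kinase C (PKC) isoforms were examined in the retina of control and diabetic rats. The 7 isoform genes Prkca, Prkcb, Prkcd, Prkce, Prkch, Prkcq and Prkcz were looked for through the RefSeq accessions of the array probes, of which 4675 had a gene symbol and together covered 4013 genes. Prkcb, Prkch and Prkcz were each matched by 1 probe, and Prkca, Prkcd, Prkce and Prkcq were not analysed here. Of the 3 matched probes, 2 (Prkcz and Prkcb) passed the filter on dim probes and 1 (Prkch) did not. The animals were male Sprague Dawley rats made diabetic with streptozotocin (STZ), a toxin of the insulin-producing cells of the pancreas, or given vehicle only. No insulin was given, and retinas were taken after 1 month (1M) or 3 months (3M). The groups 1M Control, 1M STZ, 3M Control and 3M STZ each held 6 arrays, described as 1 per rat, and the rats of the 1M and 3M sets were separate, so duration, age and set of animals cannot be told apart. The arrays labelled as the younger controls outnumber the rats listed for that group by the study, and all were used, so that n counts arrays. STZ diabetes models insulin deficiency, and the whole retina was measured, so that fewer cells of a type and less RNA per cell cannot be told apart.

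PKC isoforms are serine/threonine kinases that carry signals from membrane lipids to ion channels, the cytoskeleton and gene expression. Conventional isoforms, among them the product of Prkcb, need calcium and diacylglycerol. Calcium-independent isoforms, such as the product of Prkch, respond to diacylglycerol alone, and atypical isoforms, such as the product of Prkcz, respond to neither and are controlled through partner proteins and phosphorylation. High glucose raises the synthesis of diacylglycerol in vascular cells, and PKC activation, that of the beta isoform above all, has long been studied in diabetic retinopathy. Activation concerns the enzyme, whereas these arrays measured mRNA.

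Each value below is the background-subtracted intensity of a spot divided by the median of the rat probes on its array, called the scaled intensity. Levels are not compared between probes, because each probe binds with its own strength. Before scaling, the array medians were 123.5 to 359.6 at 1M Control, 156.4 to 303.3 at 1M STZ, 148.8 to 307.6 at 3M Control and 125.3 to 164 at 3M STZ. The 3M arrays spanned a narrower range of intensities: the interquartile range of log2 intensity was 3.36 to 3.67 on 1M Control and 3.40 to 3.67 on 1M STZ arrays, against 1.48 to 2.23 on 3M Control and 2.07 to 2.70 on 3M STZ arrays. The 62 probes for bacterial genes, which should find no target in rat RNA, had a median scaled intensity of 0.586 to 0.750 on 3M Control and 0.447 to 0.680 on 3M STZ arrays, and of 0.137 or less on every 1M array. Of 4 rod photoreceptor markers that passed the filter, the 3 named here (Sag, Prph2 and Cnga1) had a summed scaled intensity of 141 to 413 over all arrays.

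At 1M neither tested PKC isoform passed the test between STZ and control retinas. At 3M Prkcz mRNA was higher in STZ retinas and Prkcb mRNA did not pass the test. The Prkch probe gave a lower signal in 3M STZ retinas, at an intensity shared with the bacterial probes. In limma's model 1 of the 2 tested PKC probes was called at 3M, against 50.5% of all tested probes called higher and 3.55% called lower, so a single call is near what the other probes show.

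Prkcz had a scaled intensity of 5.41 to 7.76 (median 6.24) in 1M Control and of 6.385 to 8.35 (median 6.965) in 1M STZ retinas. It ranged from 2.12 to 7.59 (median 5.06) in 3M Control and from 5.96 to 9.30 (median 7.83) in 3M STZ retinas. The 3M Control rats varied most, with rat 2 (2.12) and rat 3 (3.14) below every other array of the study and rat 6 (7.59) within the STZ range, so that the 3M groups overlapped. Mean log2 levels were 2.67 ± 0.19, 2.84 ± 0.13, 2.14 ± 0.66 and 2.92 ± 0.28 in 1M Control, 1M STZ, 3M Control and 3M STZ retinas (SD, n = 6 each). From highest to lowest the order was 3M STZ, 1M STZ, 1M Control and 3M Control, and each pair of neighbours in that order overlapped in range.

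The difference between STZ and control for Prkcz at 1M was 0.17 on the log2 scale (SE 0.21, 95% interval -0.26 to 0.59, limma adjusted p = 1). At 3M it was 0.78 (SE 0.21, 95% interval 0.35 to 1.203, limma adjusted p = 0.00434), and the exact two-sided permutation test over the 12 arrays gave p = 0.0152, unadjusted. The median of all tested probes had also shifted by 0.44 at 3M, so Prkcz stood 0.33 above it, at the 85.9th percentile of all tested probes. After quantile normalization, which gives all arrays the same distribution and calls 24.6% of tested probes higher, the difference was 0.29 (adjusted p = 0.164, over all alternatives 0.00023 to 0.943). It was 0.09 with the interquartile range of the array in the model, and 0.16 without any scaling, where the medians were 1064 in 3M Control and 1117 in 3M STZ retinas, and was called in neither. Without 3M Control rat 2 it was 0.57 (adjusted p = 0.0115).

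**Figure D1:**
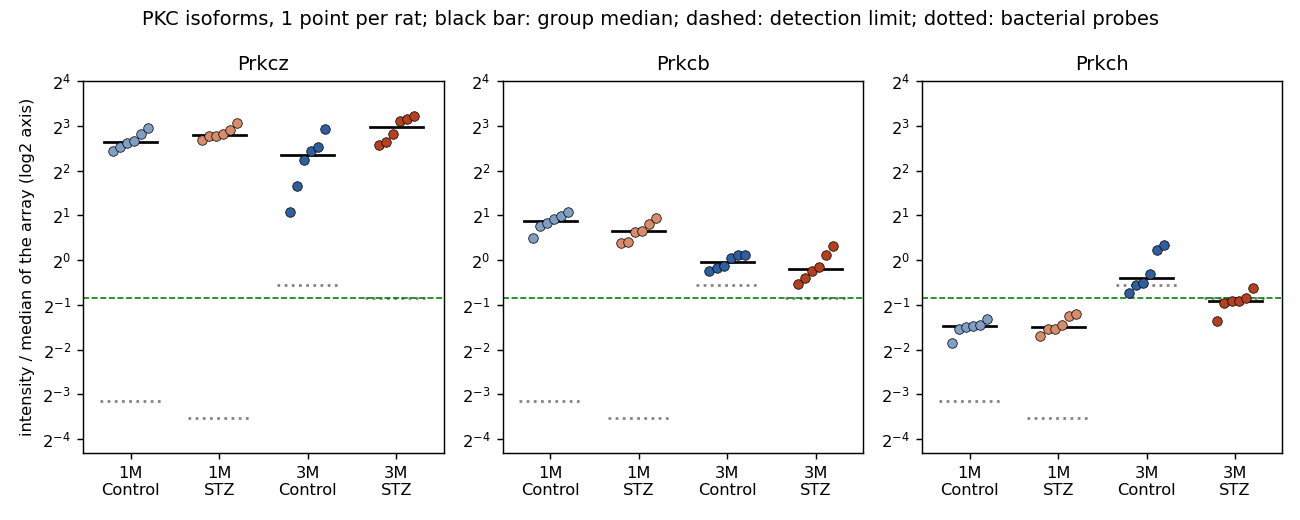
Scaled intensity of the Prkcz, Prkcb and Prkch probes on a log2 axis, 1 point per array, 6 arrays per group, with the group median as a black bar. The dashed line is the detection limit of 0.5545 and the dotted lines are the group medians of the bacterial probes, which the Prkch points reach at 3M and the Prkcz points do not.

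Prkcb had a scaled intensity of 1.40 to 2.12 (median 1.83) in 1M Control and of 1.31 to 1.92 (median 1.56) in 1M STZ retinas. At 3M it was 0.843 to 1.09 (median 0.976) in Control and 0.688 to 1.24 (median 0.869) in STZ retinas. The STZ and control ranges overlapped at both times, and every 1M array lay above every 3M array. This step between the times went with the narrower range of the 3M arrays, and was not tested. All 24 arrays were above the detection limit, yet at 3M the Prkcb probe was no higher than the 95th percentile of the bacterial probes (1.16 to 1.72 in Control and 1.31 to 1.72 in STZ retinas), whereas that percentile was 0.632 to 1.18 at 1M.

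The log2 difference of Prkcb between STZ and control was -0.20 at 1M (SE 0.15, limma adjusted p = 1) and -0.11 at 3M (SE 0.15, 95% interval -0.41 to 0.20, limma adjusted p = 0.537). The exact two-sided permutation tests gave p = 0.134 and p = 0.461, both unadjusted. At 3M it lay 0.55 below the median of all tested probes, which placed it at the 12.9th percentile, so that a reading relative to the median of each array and one relative to the shift of most probes differ for this gene. From highest to lowest the mean log2 levels were those of 1M Control (0.84 ± 0.21), 1M STZ (0.64 ± 0.22), 3M Control (-0.04 ± 0.16) and 3M STZ (-0.15 ± 0.32, SD, n = 6 each), and only the step from 1M STZ to 3M Control separated neighbouring ranges.

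Prkch was dim throughout. Its scaled intensity was 0.278 to 0.398 (median 0.358) in 1M Control and 0.307 to 0.436 (median 0.357) in 1M STZ retinas, with no array above the detection limit of 0.5545. At 3M it was 0.603 to 1.25 (median 0.752) in Control, with 6 arrays above the limit, and 0.391 to 0.652 (median 0.529) in STZ retinas, with 2 above it. The 3M ranges overlapped. These 3M values span the median of the bacterial probes on the same arrays, and the rise of the Prkch signal from 1M to 3M Control (mean log2 -1.53 ± 0.17 to -0.26 ± 0.44, SD, n = 6 each) ran alongside that of the bacterial probes.

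When the filter on dim probes was dropped, limma gave Prkch a log2 difference of 0.08 at 1M (adjusted p = 1) and -0.67 at 3M (SE 0.17, adjusted p = 0.00409), with an exact two-sided permutation p of 0.00433, unadjusted, at 3M. Of the probes under the limit, 34.6% were called lower at 3M and their median difference was -0.44, against -0.67 for Prkch. Prkch is known for its expression in T cells and epithelia. Of the 7 T and NK cell markers with a probe, 6 were under the limit (Cd2, Cd247, Cd3d, Cd4, Cd5 and Cd8a). The summed scaled intensity of the T and NK cell list was 1.64 to 1.87 in 1M Control and 1.55 to 2.02 in 1M STZ retinas. At 3M it was 3.95 to 7.68 in Control and 3.07 to 3.82 in STZ retinas. The bacterial probes also had a higher median scaled intensity at 3M, so this sum is not resolved from background. The part of T cells or epithelia in the Prkch signal was not tested.

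The STZ effect at 3M minus the effect at 1M was 0.61 on the log2 scale for Prkcz (SE 0.29, limma adjusted p = 0.12) and 0.10 for Prkcb (SE 0.21, adjusted p = 0.73). Neither passed the test, against 15.5% of all tested probes that did. Of the 2, 1 (Prkcz) had an unadjusted p under 0.05, as had 8954 of all 22025 tested probes. At 1M 0 of the 2 had an unadjusted p under 0.05 in limma, and 0 were called by the methods' t-test. Only 0.00908% of tested probes were called at 1M. Without 3M Control rat 6, whose Prkcz level was the highest of its group, the Prkcz difference between the times was called (0.765, limma adjusted p = 0.028). It was also called with array weights (0.51, adjusted p = 0.0309), while it was 0.13 after quantile normalization and -0.10 with the interquartile range of the array in the model, and called in neither.

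**Figure D2:**
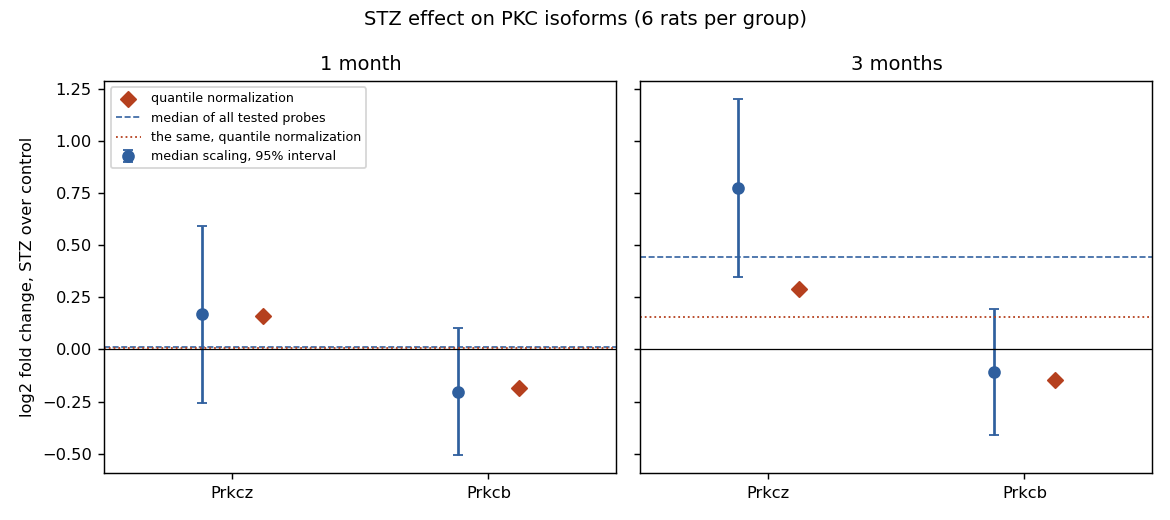
Log2 difference between STZ and control for Prkcz and Prkcb at 1M and 3M, with 95% intervals from limma (circles) and the value after quantile normalization (diamonds). The dashed and dotted lines are the medians of all tested probes; at 3M Prkcz falls from 0.78 to 0.29 when the arrays are given the same distribution.

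Over the 3M arrays, Prkcz tended to be higher and Prkch lower where the spread of intensities on the array was larger, with exceptions. The array with the smallest interquartile range (3M Control rat 3, 1.484) had one of the lowest Prkcz values. The control array with the largest (3M Control rat 6, 2.232) had the highest Prkcz and the lowest Prkch of its group. Yet the lowest Prkcz (2.12) and highest Prkch (1.25) were on 3M Control rat 2, with a range of 1.803 near the group median of 1.809. The array with the largest range of all (3M STZ rat 6, 2.697) had a Prkcz of 6.26, in a group spanning 5.96 to 9.30. The part of this spread in the STZ effect was not tested, since the spread also differed between the groups. With the deviations from the group means over 24 arrays, the named genes most like Prkcz among 2810 were Ncdn (neurochondrin, a neuronal protein; Pearson r = 0.952, Spearman coefficient 0.889) and Impa1 (inositol monophosphatase; r = 0.95, Spearman coefficient 0.886). After quantile normalization r was 0.645 and 0.887. Those most like Prkcb were Mapk10 (the neuronal JNK kinase; r = 0.799, Spearman coefficient 0.77) and Ggt7 (r = 0.792, Spearman coefficient 0.777). These values describe arrays that share a spread of intensities and carry no test.

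**Figure D3:**
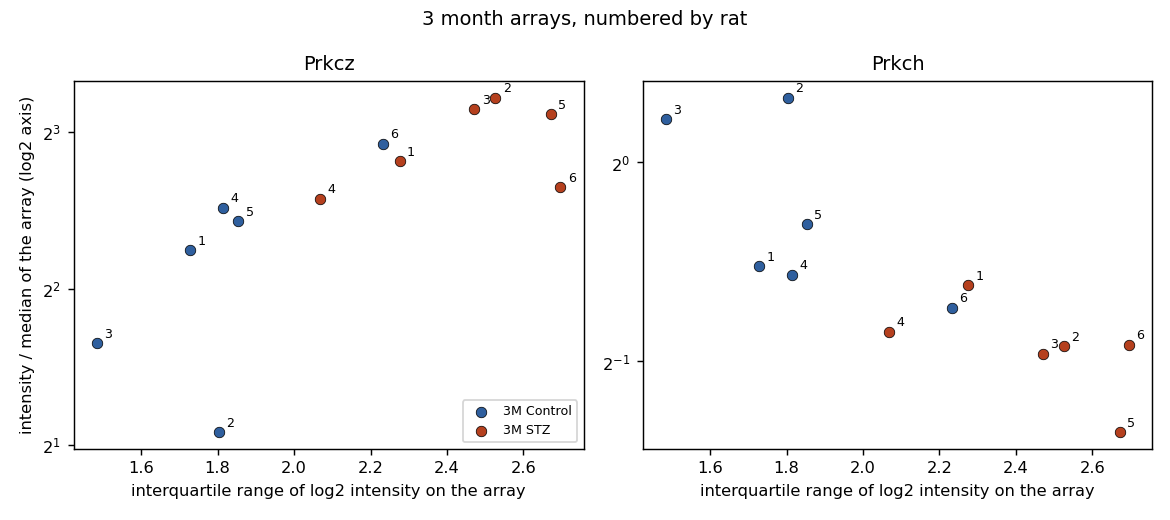
Scaled intensity (log2 axis) of Prkcz and Prkch on the 12 arrays of 3M against the interquartile range of log2 intensity on the array, each point numbered by rat. Control arrays have ranges of 1.48 to 2.23 and STZ arrays of 2.07 to 2.70; Prkcz is lowest and Prkch highest on the 2 control arrays numbered 2 and 3.

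The genes around PKC were described with 7 lists of 120 genes, of which 87 had a probe and 64 were tested, with 1 probe per gene. At 3M 41 of the 64 were higher in STZ retinas and 3 were lower, and the median log2 difference was 0.57 against 0.445 over all tested probes. Among all named genes 56.0% were called higher and 3.45% lower at the same time. In 7 genes all STZ retinas lay above all control retinas and in 1 gene all lay below, against 9.49% and 0.681% of all tested probes. After quantile normalization 22 were higher and 6 lower, against 27.1% and 6.26% of named genes, and 18 were called higher under both. By the methods' t-test, unadjusted, 16 were higher and 2 lower, and with array weights 45 and 3. With the interquartile range of the array in the model 0 were called. Without any scaling 0 were higher and 3 lower. At 1M 0 of the 64 were called by limma, 1 had an unadjusted p under 0.05 and 1 was called lower by the methods' t-test. Of all 22025 tested probes, 927 had an unadjusted p under 0.05 in limma at 1M. The methods' t-test called 1.19% of them in either direction. The change between the times was called for 18 genes, all higher at 3M, against 18.6% of named genes.

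The first list held phospholipase C enzymes, Gq proteins and IP3 receptors, which supply diacylglycerol and calcium. Of 10 tested genes, 6 were higher at 3M (Plcb2, Plcd1, Itpr3, Plcb4, Plcg1 and Plcd4) and none was lower, with a list median of 0.50. Plcd4, a calcium-driven phospholipase C, had the largest difference (0.91, SE 0.22, limma adjusted p = 0.00218). Its scaled intensity was 0.855 to 3.32 in 3M Control and 2.34 to 4.15 in 3M STZ retinas. The smallest difference was that of Gna11, a Gq-class G protein (0.04, adjusted p = 0.817), from the brighter of its 2 tested probes. At 3M Gna11 was at 0.685 to 1.16 in Control and 0.709 to 0.965 in STZ retinas. The bacterial 95th percentiles on these arrays were 1.16 to 1.72 and 1.31 to 1.72.

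Of 14 tested Gq-coupled receptors, 9 were higher (Adra1b, Htr2b, Hrh1, Tacr3, Tacr1, Htr2c, Ednrb, F2r and Adra1d) and 1 was lower, with a list median of 0.57. Adra1d, an alpha-1 adrenergic receptor, had a scaled intensity of 1.29 to 3.32 in 3M Control and 3.35 to 6.08 in 3M STZ retinas, without overlap. The log2 difference was 1.28 (SE 0.20, limma adjusted p = 0.000105), while a second Adra1d probe gave 0.30 and was not called. P2ry1, a receptor for ADP, was lower (-0.92, SE 0.25, limma adjusted p = 0.00435), from 0.964 to 4.08 in 3M Control and from 0.584 to 1.04 in 3M STZ retinas. Without 3M Control rat 2, which held the value of 4.08, it was -0.63 and still called. On every 3M STZ array P2ry1 was under the range of the bacterial 95th percentiles (1.31 to 1.72).

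Diacylglycerol kinases, which remove diacylglycerol, were represented by 3 tested genes with a median of -0.01. Dgka was higher (0.59, SE 0.16, limma adjusted p = 0.00458), but not after quantile normalization (0.19). Dgkz had a difference of -0.33 (adjusted p = 0.0549). Among the alternatives it was called lower in 7, such as with the 5th percentile subtracted (-0.52, limma adjusted p = 0.018), and not called in 32. On all 3M arrays Dgkz was under the range of the bacterial 95th percentiles. Dgkb had a difference of -0.01, and was called lower after quantile normalization (-0.36). Of 5 other proteins with a diacylglycerol-binding C1 domain, Chn1, Rasgrp4 and Rasgrp1 were higher, and Unc13b, a synaptic vesicle priming protein, had a difference of 0.01 (list median 0.60). Rasgrp1, a Ras activator, was at 0.348 to 1.05 in 3M Control, where 2 of 6 arrays passed the detection limit, and at 0.751 to 1.00 in 3M STZ retinas (0.67, SE 0.17, limma adjusted p = 0.00345). On all 3M arrays it was under the range of the bacterial 95th percentiles, and a second Rasgrp1 probe was not called.

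Among 8 related kinases and phosphatases, 5 were higher (Sgk1 and Phlpp1 among them) and none was lower, with a list median of 0.44. Phlpp1, a phosphatase that acts on the hydrophobic motif of PKC and Akt, had a scaled intensity of 5.51 to 15.3 in 3M Control and 12.9 to 27.4 in 3M STZ retinas. Its log2 difference was 0.85 (SE 0.21, limma adjusted p = 0.00274), and 0.20 and not called after quantile normalization. Phlpp1 had 2 tested probes, and only the brighter is given. Sgk1, named after its values were seen, was called higher with median scaling (0.42) and lower after quantile normalization (-0.37). Rps6kb1, the S6 kinase, had the smallest difference (0.32, adjusted p = 0.252).

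Of 8 anchors and adaptors, 5 were higher (Pdlim5, Ywhag, Rack1, Ywhah and Cavin3) and 1 was lower, with a list median of 0.64. Cavin3, a caveolar protein that binds PKC delta, was at 3.39 to 8.35 in 3M Control and 10.99 to 22.1 in 3M STZ retinas, without overlap (1.23, SE 0.20, limma adjusted p = 0.000158). Pick1, which holds PKC alpha near membrane receptors, was at 0.801 to 1.44 in 3M Control and 0.534 to 0.991 in 3M STZ retinas (-0.57, SE 0.20, limma adjusted p = 0.0188). Leaving out single arrays took the adjusted p of Pick1 up to 0.0548, and on every 3M STZ array it was under the range of the bacterial 95th percentiles (1.31 to 1.72).

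The 16 tested substrates and downstream genes held 12 that were higher, among them the kinases Map2k1, Map2k2 and Mapk3 of the ERK cascade, the transcription factors Jun and Egr1, and Gap43, a growth cone substrate of PKC, and the list median was 0.69. After quantile normalization Jun (0.73) and Mapk3 (0.64) were still called, and Map2k1 (0.015), Map2k2 (0.17) and Gap43 (0.16) were not. Only Add3, a subunit of the membrane skeleton protein adducin, was lower. It was at 0.986 to 1.54 in 3M Control and 0.678 to 0.872 in 3M STZ retinas, without overlap (-0.57, SE 0.17, limma adjusted p = 0.00778), and 1 of 6 arrays passed the detection limit in each 1M group. On every 3M STZ array it was under the range of the bacterial 95th percentiles (1.31 to 1.72), so the size of the difference is not resolved from background, and Add3 passed the filter through its 3M signal. Egr1, an immediate early gene, had the largest mean difference (1.26, SE 0.43, limma adjusted p = 0.0167), with 2.48 to 4.47 in 3M Control and 3.83 to 63.5 (median 6.40) in 3M STZ retinas. Without 3M STZ rat 1, which held the value of 63.5, the difference was 0.69 and still called. The Egr1 call was lost after quantile normalization (0.585, adjusted p = 0.245), with separate fits of the times (adjusted p = 0.0521), with array spread in the model, without scaling and by the methods' t-test, and its adjusted p over all alternatives was 0.00544 to 0.543.

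**Figure D4:**
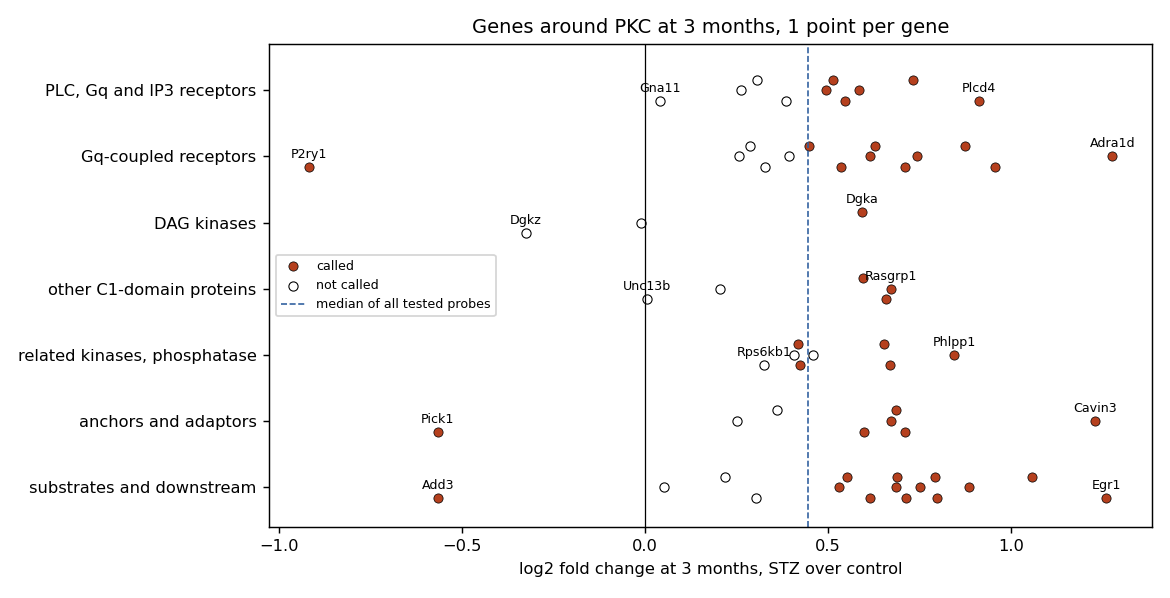
Log2 difference between STZ and control at 3M for the 64 tested genes around PKC, 1 point per gene, by list; filled points were called and the vertical dashed line is the median of all tested probes (0.445). Of the filled points 41 lie above 0 and 3 (P2ry1, Pick1 and Add3) below it; the members with the largest and smallest difference of each list carry their names.

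Markers of several cell types were also called higher at 3M, to be read against the 56.0% of all named genes called higher. Of 6 tested Müller glia markers 4 were higher (Slc1a3, Gfap, Clu and Vim), and their list summed to 52.8 to 145.5 in 3M Control and 146.5 to 203.4 in 3M STZ retinas. Of 5 tested microglia and myeloid markers 4 were higher (Ctss, Itgam, C1qb and Cd74), with sums of 7.96 to 11.4 and 10.9 to 16.6. For rod bipolar cells, in which PKC alpha is the usual marker, 2 markers had a probe and 1 (Grm6) was higher, with sums of 7.95 to 25.4 and 18.3 to 32.0. Of 6 amacrine markers 4 were higher, of 4 ganglion cell markers 2, of 4 rod markers 2 and of 2 erythrocyte markers 1. Of 2 endothelial markers 2 were higher, and the 1 cone marker was too. Of 3 markers of all leukocytes 0 were higher and 1 was lower, with a list median of -0.03. That list summed to 2.43 to 3.51 in 3M Control and 2.81 to 3.19 in 3M STZ retinas. Of 2 pigment epithelium markers 0 were called. Their list summed to 3.07 to 13.4 in 3M Control and 2.70 to 97.7 in 3M STZ retinas (STZ median 3.91). The part of these cell types in the PKC results was not tested.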

How the data were processed

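Retinal RNA was measured on CodeLink rat whole genome arrays, 24 in all. The authors deposited spot intensity with the local background taken off, and again after dividing it by nearly the median of the array. No genome build was given with the array data, so no coordinates are printed.

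The background-subtracted intensity was divided by the median of the 33849 rat probes, floored at 0.01 and converted to log2. Rat probes entered the test where the median over 24 arrays exceeded 0.5545, the 35th percentile of 33911 probes, and each group had 4 or more values, which left 22025 probes. The 4 groups were fitted with limma 3.58.1 in R 4.3.3 in a single model. Calls needed a Benjamini-Hochberg adjusted p below 0.05 over the whole table and a difference of 1.2-fold or more. The fit was tested on simulated data. The methods' t-test was run at p under 0.01 with the same fold limit. Exact permutation tests used all 924 splits of a time point's arrays.

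Probes were named through RefSeq accessions, which gave 4675 of 5469 such probes a symbol. All counts cover whole lists, including some genes not reported here by name. Each gene was represented by its tested probe of highest mean log2 intensity. From each list of genes around PKC the members with the highest and the lowest log2 difference at 3 months are given with values. The members and lists were chosen with earlier results of these data known. Alternatives were 2 quantile normalizations, the authors' own scaling, a 5th percentile background, no dim filter, every array above the limit, a floor of 0.1, no fold limit, separate fits, array weights, a replicate block, array spread as a covariate, each array left out and, chosen after seeing the data, no scaling.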

Additional observations from a re-analysis of the deposited data

Results flagged for a closer look

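The levels of 7 of the 68 groups of 6 arrays checked stood out by 1 array, where chance marks about 1 in 20. All are log2 levels of genes around PKC, and none is a PKC isoform. On 3M Control array 2 Cavin3 was at 1.76 (others 2.63 to 3.06), Gna11 at 0.22 (others -0.55 to -0.35), P2ry1 at 2.03 (others -0.05 to 0.65) and Rps6kb1 at 0.895 (others 1.87 to 2.40). The same array held the lowest Prkcz value. On 1M Control array 5 Adra1d was at 2.73 (others 1.78 to 2.05) and Plcd4 at 2.54 (others 1.92 to 2.15). Egr1 was at 5.99 on 3M STZ array 1 (others 1.94 to 3.25).

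The STZ effect differed between the times by limma's interaction term for 4 of the named genes, each with a higher log2 difference at 3M. Of all named genes 18.6% were called in this direction, and these genes had been picked for their 3M difference. The change was 1.15 for Adra1d (adjusted p = 0.0199), 1.48 for Cavin3 (0.0113), 0.70 for Dgka (0.0403) and 0.80 for Rasgrp1 (0.0359).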

How the results depend on the processing

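The number of PKC probes called at 3M was 1, and 0 after quantile normalization over all arrays or within each time, by the methods' t-test with or without adjustment, with array spread as a covariate and without scaling. It was 2 without the dim filter (of 3 probes) and 1 to 1 with each array left out. No PKC probe was called at 1M under these alternatives. Between the times 0 were called, with 1 without the dim filter, 1 with array weights and 0 to 1 with each array left out. Over all tested probes 11911 were called at 3M (11130 higher), 6960 after quantile normalization, 3722 by the methods' t-test and 0 with array spread as a covariate. Without scaling 970 were called, of which 76 were higher. The median log2 difference was then -0.17, against 0.445 with median scaling. The cause was not tested.

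Signs turned as follows. With array spread as a covariate the change between times was -0.10 for Prkcz and -0.26 for Prkcb, and at 3M Unc13b was at -0.81 and Rps6kb1 at -0.46. Without scaling Prkcz was at -0.12 at 1M, the change between times of Prkcb was -0.24, and at 3M Gna11 was at -0.575, Dgka at -0.024, Unc13b at -0.61 and Rps6kb1 at -0.29. Under the quantile normalizations Unc13b was at -0.22 and -0.215 and Rps6kb1 at -0.14 in both. Unc13b was at -0.043 with the 5th percentile subtracted and at -0.095 with array weights. With each array left out Gna11 ranged from -0.005 to 0.149 and Unc13b from -0.21 to 0.18.

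Arrays with the same replicate number did not deviate together (correlations -0.238 to 0.252), so the numbers do not pair them. With the replicate block 1 PKC probe was called at 3M and 11589 of all probes. Signal over background limits Prkch, and at 3M Prkcb, Rasgrp1, Dgkz and Gna11. In 3M STZ retinas it also limits P2ry1, Pick1 and Add3.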
